A study of Mus musculus with 9 samples.

Results

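The genes described here are 10 mouse genes of the NRF2 pathway: Nfe2l2 and Keap1, which encode the transcription factor NRF2 and its inhibitor, and Hmox1, Nqo1, Gclc, Gclm, Srxn1, Txnrd1, Slc7a11 and Fth1, which encode a heme oxygenase, antioxidant enzymes, a cystine transporter and a ferritin chain. They were chosen by name with earlier results of these data known, through the Ensembl gene identifier of each row. They make up 10 of the 54307 genes of the deposited expression table. RNA from 9 samples of C2C12 cells, an established line of mouse myoblasts able to form myotubes, was enriched for mRNA and sequenced. The HL group (3 samples) received 25 mmol/L glucose and 200 nmol/L liraglutide, the H group (3 samples) received 25 mmol/L glucose, and the NC group (3 samples) was the control, each for 48 h. Liraglutide, a fatty-acid-linked relative of the gut hormone GLP-1, activates the GLP-1 receptor. The glucose concentration of the NC group is not given in the sources used here, and no library with liraglutide alone or with an osmotic control was analysed here. The methods speak of independent repeats without saying that the 3 samples of a group were separate cultures, so the p-values reflect only how far these samples spread, possibly for technical reasons.

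In resting cells KEAP1 holds NRF2 and hands it to the CUL3 ubiquitin ligase, which marks it for degradation. Oxidants and electrophiles modify cysteines of KEAP1, NRF2 then escapes, pairs with a small MAF protein in the nucleus and binds antioxidant response elements, while BACH1 occupies the same elements as a repressor until heme removes it. NRF2 itself is controlled mostly at the level of the protein, which was not measured here. Its known targets make glutathione, recycle thioredoxin and peroxiredoxin, reduce quinones, break down heme and store iron, and in muscle cells they serve to limit damage by reactive oxygen.

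Values are FPKM, fragments scaled to transcript length and to the mapped fragments of a library, as the authors deposited them. Totals were 698627 to 731929 FPKM in HL, 649733 to 683362 in H and 757000 to 765681 in NC. Depth, estimated from the steps between the lowest values, was 16.0 to 19.9 in HL, 17.6 to 21.1 in H and 19.3 to 19.4 in NC, in 1e6 fragments per library. Fold changes were estimated with limma on log2(FPKM + 0.1) over 13674 genes, a scale that understates changes of low genes, and all 10 genes were among them. A gene is said to have risen or fallen only where the adjusted p is below 0.05 and the log2 fold change lies beyond 1 in either direction, and smaller differences are given as higher or lower at the adjusted p alone. Replicates spread more in H, with a median SD of 0.171 on the log2 scale, against 0.087 in HL and 0.072 in NC. All 8 myoblast markers examined were above 1 FPKM in every library, with a summed level of 716 to 735 FPKM in HL, 396 to 534 in H and 491 to 505 in NC. The markers in this sum did not move together. In HL against H, Cdh15 and Chrna1 rose and Cdh2 fell. Myod1 fell in H against NC, and Myf5 and Itga7 rose in HL against NC. Of 10 macrophage markers, 8 stayed below 1 FPKM in every H library, Tyrobp was listed at 0 in all libraries, and Ptprc, Adgre1, Itgam, Fcer1g and Laptm5 did not exceed 0.137 FPKM. Lyz2 reached at most 0.878 FPKM, with no group apart from the others, and Spi1 was listed at 0 in all HL and NC libraries and had 0.274, 0.177 and 0.327 FPKM in H. The remaining markers, Csf1r and Cd68, brought the summed level of the list to 19.4 to 20.5 FPKM in HL, 106 to 169.6 in H and 5.39 to 6.79 in NC, and the part of this in the results that follow was not tested. In bulk RNA, fewer cells expressing a gene and less RNA per cell cannot be told apart.

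Compared with the H group, 2 of the 10 genes fell in the HL group, Hmox1 and Gclm, and none rose. At the adjusted p alone 8 were lower and 2 higher, so that all 10 passed, Keap1 with an adjusted p of 0.0482. Of all tested genes, 5.83% fell and 3.55% rose, and at the adjusted p alone 21.7% were lower and 26.7% higher (48.4% in either direction). The median log2 fold change of the 10 genes was -0.69, against 0.04 over all tested genes. The HL libraries lay wholly above or below the H libraries for all 10 genes, where this was so for 55.3% of the tested genes. Because the 10 genes were chosen with earlier results of these data known, these contrasts are not independent evidence.

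Compared with the NC group, the H group showed a rise of Hmox1 and no fall, while 5 genes were higher and 1 lower at the adjusted p alone. Of all tested genes 10.3% rose and 5.75% fell, and at the adjusted p alone 27.1% were higher and 33.0% lower, 60.1% together, so the share of these 10 genes that passed is that of the background. The H and NC libraries did not overlap for 7 of the 10 genes and for 65.5% of the tested genes. Their median log2 fold change was 0.28, against -0.04 over all tested genes. In the HL group compared with the NC group, Gclm fell, none rose, 6 were lower and 1 higher at the adjusted p alone, with a median log2 fold change of -0.37 (-0.04 over all tested genes). The shares of all tested genes were 2.41% that fell and 6.30% that rose, and at the adjusted p alone 27.2% that were lower and 21.6% higher (48.8% together). HL and NC did not overlap for 8 of the 10 genes and for 65.8% of the tested genes. The comparisons of HL with H and of H with NC share the H libraries, as each other pair shares a group, so their values are given side by side.

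**Figure D1:**
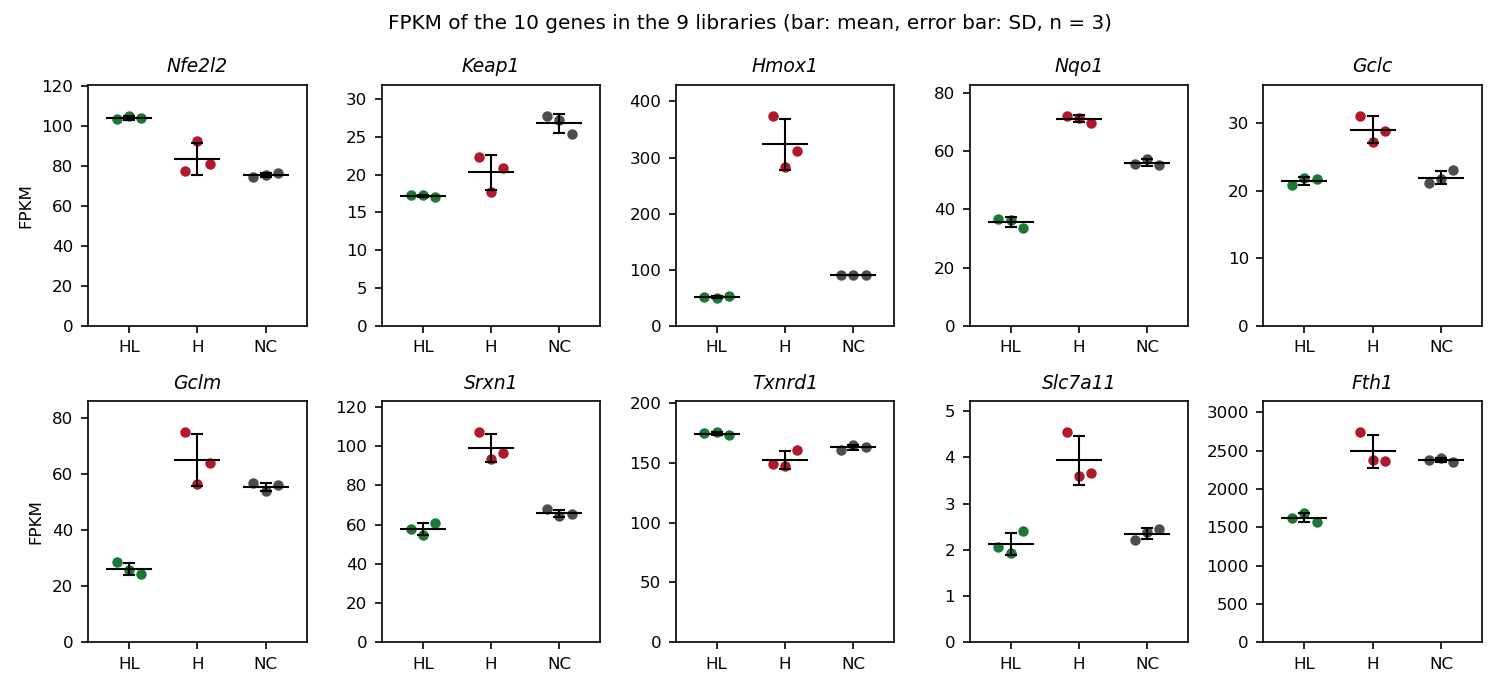
FPKM of the 10 genes in each library (vertical axes, linear and starting at 0) for the HL, H and NC groups, with the mean as a bar and the SD as an error bar (n = 3 each). For Hmox1 the 3 HL libraries lie below all NC libraries and the 3 H libraries above them, whereas for Nfe2l2 the HL libraries are the highest and for Keap1 the lowest.

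**Figure D2:**
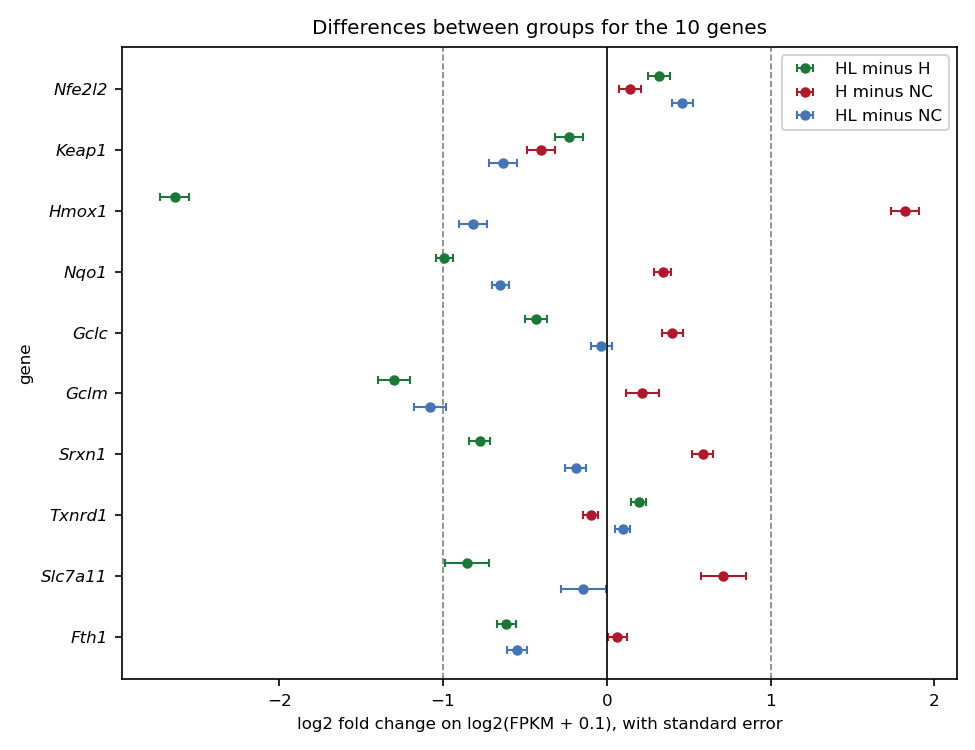
Log2 fold changes on log2(FPKM + 0.1) with their standard errors for the 10 genes in HL minus H, H minus NC and HL minus NC, with dashed lines at the thresholds of -1 and 1. Hmox1 passes a threshold in both comparisons with the H group and Gclm in both comparisons of the HL group, and Nqo1 stops just short of -1 in HL minus H.

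Among the regulators, the transcript of NRF2 was highest and that of its inhibitor lowest in the HL group. Nfe2l2 had 104, 105 and 104 FPKM in HL, 77.7, 92.8 and 80.9 FPKM in H, and 74.8, 75.5 and 76.8 FPKM in NC. The groups did not overlap in any pair. It was higher by 0.32 on the log2 scale in HL than in H (standard error, SE, 0.07, adjusted p = 0.00327) and 0.46 in HL against NC (adjusted p = 0.000436), while H and NC did not differ at the threshold (log2 fold change 0.14, adjusted p = 0.0852). The difference between H and NC passed without H replicate 1 (log2 fold change 0.19, adjusted p = 0.0197) and after rescaling every library to the same total (TPM; 0.34, adjusted p = 0.00232).

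Keap1 ran the other way, with 17.3, 17.2 and 17.0 FPKM in HL, 22.3, 17.7 and 20.9 FPKM in H, and 27.8, 27.2 and 25.4 FPKM in NC. Again no pair of groups overlapped, although H replicate 2 came close to the HL libraries. Compared with NC, Keap1 was lower in HL (log2 fold change -0.64, SE 0.09, adjusted p = 0.000346) and in H (-0.40, adjusted p = 0.00278, and -0.21 with adjusted p = 0.0621 in TPM). Between HL and H the log2 fold change of -0.23 had an adjusted p of 0.0482, which rose above 0.05 when any library other than H replicate 2 was left out (0.0617 to 0.13). The ratio of Nfe2l2 to Keap1 FPKM, which does not depend on how a library was scaled, was 6.07 ± 0.0645 in HL, 4.20 ± 0.926 in H and 2.83 ± 0.176 in NC (SD, n = 3 each). The groups were fully separated in each pair, and the exact 2-sided permutation test gave p = 0.1, the smallest that 3 against 3 allows, for all 3 comparisons (adjusted p = 0.112 over 18 comparisons of 6 ratios).

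Of 10 further regulators of NRF2, 8 were expressed enough to be tested. In H compared with NC 3 rose and none fell, in HL compared with H 1 fell, and in HL compared with NC 1 rose. Over all tested genes, 10.3% rose and 5.75% fell in H against NC. In HL, 5.83% of all tested genes fell against H and 6.30% rose against NC. The median log2 fold changes of the list were 0.89, -0.18 and 0.29 in these comparisons, against -0.04, 0.04 and -0.04 over all tested genes. Mafk, a small MAF partner of NRF2 and BACH1, averaged 14.6 ± 0.538 FPKM in HL, 38.7 ± 6.78 in H and 11.2 ± 0.463 in NC (SD, n = 3 each). It rose in H against NC (log2 fold change 1.77, adjusted p = 1.51e-06) and fell in HL against H (-1.39, adjusted p = 1.83e-05). Mafg, another small MAF, was at 36.7 ± 1.63 FPKM in HL, 61.4 ± 7.51 in H and 29.4 ± 0.606 in NC, and its rise in H (log2 fold change 1.05, adjusted p = 6.89e-06) was at 0.96 without H replicate 1. Maff, also a small MAF, not taken by the rule for named genes and added after its values were seen, had 31.2, 52.1 and 26.0 FPKM on average in HL, H and NC, with log2 fold changes of 0.995 in H against NC and -0.74 in HL against H.

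Sqstm1 encodes p62, an autophagy receptor that binds KEAP1 and is itself a target of NRF2. It rose in H against NC, with 912 ± 161 FPKM in H and 335 ± 7.79 in NC (log2 fold change 1.43, SE 0.10, adjusted p = 3.31e-06), and remained above NC in the HL group, with 688 ± 9.42 FPKM (log2 fold change of HL against NC 1.04, adjusted p = 6.36e-05). Bach1, the repressor, was also singled out after its values were seen. Its level was 13.4 ± 0.240 FPKM in HL, 12.8 ± 1.04 in H and 7.34 ± 0.252 in NC. HL and H overlapped (log2 fold change 0.06, adjusted p = 0.507), and both were higher than NC at the adjusted p alone (log2 fold changes 0.86 and 0.79, adjusted p = 3.58e-05 and 1.88e-05). Cul3, the scaffold of the ligase, was at 80.6 ± 1.83 FPKM in HL, 79.1 ± 5.77 in H and 95.4 ± 3.90 in NC.

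**Figure D3:**
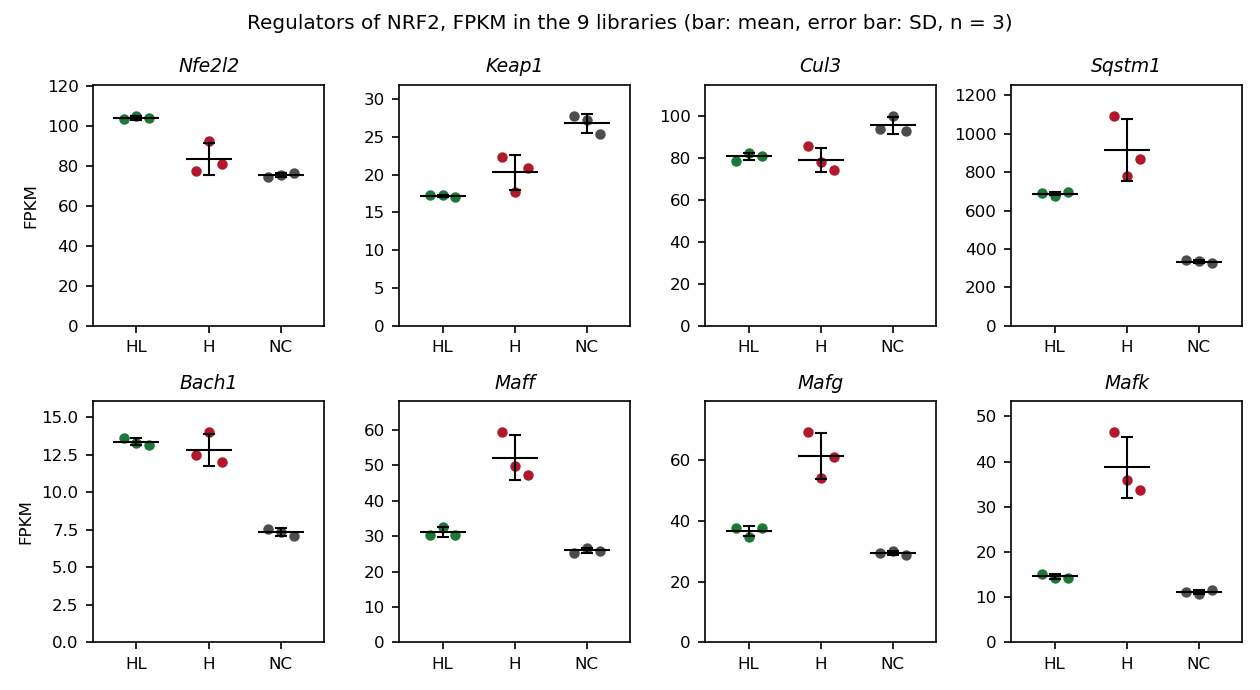
FPKM of 8 regulators of NRF2 in each library (vertical axes, linear and starting at 0) for the HL, H and NC groups, with the mean and SD (n = 3 each). The tested regulators Nfe2l1 and Rbx1 are not shown. Maff, Mafg and Mafk are highest in the 3 H libraries, Sqstm1 and Bach1 are lowest in the 3 NC libraries, and Nfe2l2 and Keap1 run in opposite orders.

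Hmox1, the inducible heme oxygenase, which splits heme into biliverdin, carbon monoxide and iron, changed most of the 10 genes in HL against H and in H against NC, while in HL against NC Gclm changed more. It had 51.9, 49.9 and 52.8 FPKM in HL, 374, 284 and 312 FPKM in H, and 90.9, 90.3 and 91.5 FPKM in NC. The H libraries were the highest and the HL libraries the lowest, with NC between them and no overlap. In H against NC it rose 3.56-fold (log2 fold change 1.82, SE 0.09, adjusted p = 3.93e-07). In the HL group it fell to 0.159 times the H level (log2 fold change -2.64, SE 0.09, adjusted p = 2.26e-07) and was lower than NC at the adjusted p alone (-0.82, adjusted p = 0.000101). The study picked Hmox1 from these libraries as one of its most changed genes, so its size here is not independent evidence. Of the 2 macrophage markers above 1 FPKM, Csf1r averaged 0.262 FPKM in HL, 125 in H and 0.451 in NC, highest in H like Hmox1, whereas Cd68 averaged 19.0 FPKM in HL, 17.6 in H and 4.78 in NC. Their part in the Hmox1 difference was not tested.

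The constitutive heme oxygenase gene Hmox2 had 54.3 ± 2.56 FPKM in HL, 47.9 ± 1.15 in H and 51.8 ± 0.849 in NC. Its direction in H against NC turned with the scaling (log2 fold change -0.11, and 0.08 in TPM). The ratio of Hmox1 to Hmox2 was 0.949 ± 0.0185 in HL, 6.74 ± 0.896 in H and 1.75 ± 0.0289 in NC, separated in each pair (exact permutation p = 0.1 each, adjusted p = 0.112). The genes whose log2 values followed Hmox1 most closely over the 9 libraries, among 9848 genes with a mean of at least 5 FPKM, were Tns3, Abcc4, Aqp5, Crem and Ereg, with Pearson's r of 0.997, 0.997, 0.996, 0.996 and 0.996. They encode a focal adhesion protein, an exporter of organic anions, a water channel, a cAMP-responsive transcription factor and a ligand of the EGF receptor. These correlations describe 9 libraries in 3 groups that share their treatments. Of the other genes of the pathway, Srxn1 stood nearest to Hmox1 (r = 0.991), then Gclc (0.948), Nqo1 (0.916), Gclm (0.831) and Fth1 (0.791). Keap1 (0.167) and Nfe2l2 (-0.499) did not follow Hmox1, and Txnrd1 ran opposite to Hmox1 (-0.896). Slc7a11 lay below the minimum level of this ranking.

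Around heme and iron, 13 further genes were tested. In H compared with NC 1 rose and none fell, where 10.3% of all tested genes rose and 5.75% fell. There 3 were higher and 5 lower at the adjusted p alone, against 27.1% and 33.0% of all tested genes. In the other comparisons none was called. At the adjusted p alone 6 were higher and 2 lower in HL against H (4 and 4 in HL against NC). Of all tested genes 26.7% were higher and 21.7% lower in HL against H by this measure, and 21.6% and 27.2% in HL against NC. The median log2 fold changes were 0.18 in HL against H, -0.11 in H against NC and -0.06 in HL against NC. The gene that rose was Alas1, the rate-limiting enzyme of heme synthesis outside red cells. It had 50.3 ± 4.02 FPKM in HL, 95.9 ± 11.8 in H and 38.7 ± 2.58 in NC, a rise of 2.48-fold in H against NC (adjusted p = 4.64e-06) and a log2 fold change of -0.93 in HL against H (adjusted p = 8.56e-05). The difference between HL and H, short of a call, was -1.02 in TPM and without H replicate 2.

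Fth1, the heavy chain of ferritin that oxidises iron for storage, was the most abundant of the 10 genes. It had 1617, 1691 and 1572 FPKM in HL, 2738, 2376 and 2365 FPKM in H, and 2378, 2410.2 and 2347 FPKM in NC. The HL libraries lay below all others, and H and NC overlapped. In HL it was lower at the adjusted p alone, against H (log2 fold change -0.61, SE 0.06, adjusted p = 5.65e-05) and against NC (-0.55, adjusted p = 0.000115). Between H and NC the log2 fold change of 0.06 (adjusted p = 0.375) turned to -0.005 without H replicate 1 and was 0.26 in TPM (adjusted p = 0.00198). Its partner Ftl1, the light chain, had 2969 ± 52.3 FPKM in HL, 3033 ± 177 in H and 3260.2 ± 43.5 in NC. The Fth1 to Ftl1 ratio was 0.548 ± 0.0290 in HL, 0.823 ± 0.0584 in H and 0.730 ± 0.0123 in NC, with no overlap in any pair (exact permutation p = 0.1 each, adjusted p = 0.112). Both ferritin genes have processed pseudogenes that may share their reads, so their levels are uncertain.

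Nqo1, a quinone reductase and a classical target of NRF2, had 36.8, 36.6 and 33.7 FPKM in HL, 72.1, 71.5 and 69.7 FPKM in H, and 55.5, 57.3 and 55.4 FPKM in NC. No groups overlapped, and the order was that of Hmox1. In HL against H it stood at 0.502 times the level, a difference of -0.99 on the log2 scale (SE 0.05, adjusted p = 2.46e-06), just short of a call. It passed the fold threshold in TPM (-1.09) and without HL replicate 1 (-1.02), HL replicate 2 (-1.01) or H replicate 3 (-1.01). Against NC it was lower in HL (log2 fold change -0.65, adjusted p = 2.23e-05) and higher in H (0.34, adjusted p = 0.000349).

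Of 10 tested genes of quinone and carbonyl metabolism and export, 1 fell in HL against H, and 1 rose and 1 fell in H against NC. Over all tested genes, 5.83% fell in HL against H, and 10.3% rose and 5.75% fell in H against NC. Abcc4, which exports glutathione-linked and other organic anions, had 8.17 ± 0.505 FPKM in HL, 23.6 ± 1.83 in H and 10.8 ± 0.435 in NC. It rose in H against NC (log2 fold change 1.11, adjusted p = 3.67e-06) and fell in HL against H (-1.52, adjusted p = 2.68e-06). Ugdh, which makes UDP-glucuronate for conjugation, fell in H against NC, with 101 ± 23.4 FPKM in H and 210.4 ± 6.95 in NC (log2 fold change -1.08, adjusted p = 8.82e-05), a call that ended in TPM (-0.89) and without H replicate 1 (-0.95).

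The subunits of glutamate-cysteine ligase, the rate-limiting enzyme of glutathione synthesis, differed in their order. Gclc, the catalytic subunit, had 20.8, 21.8 and 21.7 FPKM in HL, 31.0, 27.2 and 28.9 FPKM in H, and 21.1, 21.7 and 23.0 FPKM in NC. H was above both other groups, which overlapped. HL was below H (log2 fold change -0.43, SE 0.07, adjusted p = 0.000685), and H was above NC (0.40, adjusted p = 0.000624). Between HL and NC its log2 fold change was -0.03 (SE 0.07, adjusted p = 0.712), with a sign that turned in TPM (0.06) and without NC replicate 3 (0.003).

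Gclm, the modifier subunit that raises the efficiency of the enzyme, had 28.6, 25.8 and 24.6 FPKM in HL, 75.0, 56.6 and 63.9 FPKM in H, and 56.8, 54.1 and 56.1 FPKM in NC. Here HL was below both other groups, and H replicate 2 lay within the range of NC. Gclm fell to 0.404 times its H level (log2 fold change -1.30, SE 0.10, adjusted p = 1.51e-05) and to 0.473 times its NC level (-1.08, SE 0.10, adjusted p = 4.64e-05), which in TPM was -0.98, short of the fold threshold. H against NC gave a log2 fold change of 0.22 (adjusted p = 0.0831), which passed the adjusted p without H replicate 2 (0.31, adjusted p = 0.0118) and in TPM (0.41, adjusted p = 0.0054). The ratio of Gclc to Gclm was 0.819 ± 0.0817 in HL, 0.448 ± 0.0330 in H and 0.394 ± 0.0200 in NC. Every library of HL exceeded every one of H, and every one of H those of NC (exact permutation p = 0.1 each, adjusted p = 0.112), with a log2 difference of 0.87 between HL and H and 0.18 between H and NC.

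Slc7a11, the cystine carrier of the antiporter that brings in the limiting amino acid of glutathione, was the least expressed of the 10 genes. It had 2.06, 1.92 and 2.40 FPKM in HL, 4.54, 3.60 and 3.67 FPKM in H, and 2.21, 2.39 and 2.45 FPKM in NC. H exceeded both other groups, and HL and NC overlapped. At the adjusted p alone it was lower in HL against H (log2 fold change -0.85, SE 0.14, adjusted p = 0.000939) and higher in H against NC (0.71, adjusted p = 0.00162), and HL and NC did not differ at the threshold (-0.14, SE 0.14, adjusted p = 0.421). Slc3a2, the heavy chain that carries this transporter and several others to the membrane, had 103 ± 3.37 FPKM in HL, 203 ± 35.6 in H and 86.4 ± 1.46 in NC. It rose in H against NC (log2 fold change 1.22, adjusted p = 9.31e-06), with -0.97 in HL against H, which passed the fold threshold in TPM (-1.07) and without H replicate 2 (-1.07) or H replicate 3 (-1.01). The ratio of Slc7a11 to Slc3a2 was 0.0208 ± 0.00294 in HL, 0.0194 ± 0.000960 in H and 0.0273 ± 0.00188 in NC, lower than NC in every HL and H library (exact permutation p = 0.1 each) and overlapping between HL and H (p = 0.6).

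In the list of glutathione supply and use, 12 of 14 genes were tested. In H against NC 2 rose, in HL against H 2 fell, and in HL against NC none was called. Over all tested genes, 10.3% rose in the comparison of H with NC, and 5.83% fell in that of HL with H. For HL and NC, 2 of the list were higher and 3 lower at the adjusted p alone (21.6% and 27.2% of all tested genes). Median log2 fold changes of the list were -0.187 for HL minus H, 0.155 for H minus NC and -0.173 for HL minus NC. All tested genes had medians of 0.04, -0.04 and -0.04. Chac1, a glutathione-degrading enzyme that ATF4 induces, had 25.4 ± 0.792 FPKM in HL, 67.4 ± 12.7 in H and 14.0 ± 1.08 in NC, rising in H against NC (log2 fold change 2.24, adjusted p = 6.43e-07) and falling in HL against H (-1.39, adjusted p = 2.69e-05). Ggct, which acts on the products of glutathione breakdown, fell in HL against H (-1.09, adjusted p = 0.00218), with 6.55 ± 1.90 FPKM in HL and 13.8 ± 2.29 in H. That call ended at a pseudocount of 1 (-0.99), without HL replicate 3 (-0.88) and without H replicate 1 (-0.96).

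**Figure D4:**
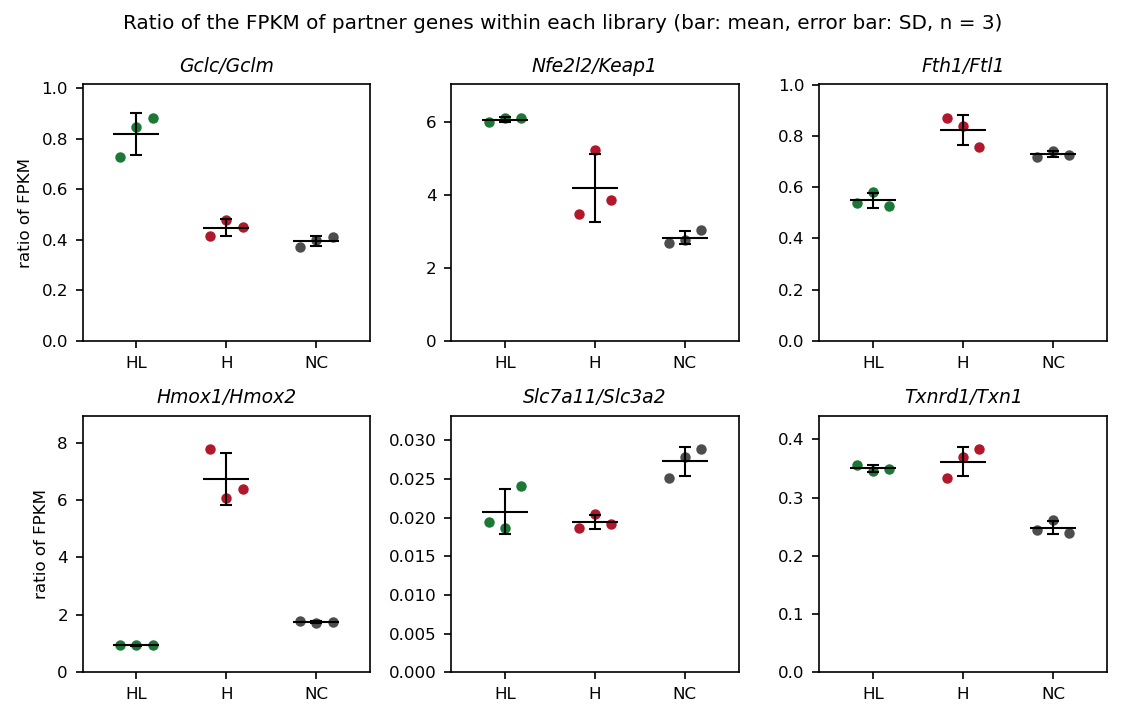
Ratio of the FPKM of partner genes within each library (vertical axes, linear and starting at 0) for the HL, H and NC groups, with the mean and SD (n = 3 each). The Gclc to Gclm ratio of 0.819 in HL stands apart from 0.448 in H and 0.394 in NC, and the Fth1 to Ftl1 ratio is lowest in HL.

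Srxn1, sulfiredoxin, which restores over-oxidised peroxiredoxins, had 57.5, 54.8 and 60.9 FPKM in HL, 107, 93.5 and 96.6 FPKM in H, and 67.9, 64.5 and 65.2 FPKM in NC. The order was H, NC and HL, with no overlap. It was lower in HL against H (log2 fold change -0.78, SE 0.06, adjusted p = 2.25e-05) and higher in H against NC (0.58, SE 0.06, adjusted p = 4.75e-05). The smaller difference between HL and NC (-0.19, adjusted p = 0.0336) lost the threshold in TPM (-0.09, adjusted p = 0.269), without a filter on low values (0.0701) and without HL replicate 1 (0.0834), HL replicate 2 (0.115) or NC replicate 1 (0.11), 2 (0.0635) or 3 (0.075).

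Txnrd1, the cytosolic thioredoxin reductase, had 175, 175 and 173 FPKM in HL, 149, 147 and 161 FPKM in H, and 161, 165 and 163 FPKM in NC. HL was above both other groups, and H replicate 3 reached the range of NC. In HL against H it was higher at the adjusted p alone (log2 fold change 0.20, SE 0.05, adjusted p = 0.00737), which did not hold in TPM (0.10, adjusted p = 0.188). In H against NC its log2 fold change of -0.10 (adjusted p = 0.0935) turned to 0.09 in TPM and passed without H replicate 3 (-0.14, adjusted p = 0.0205). HL lay above NC without overlap, by 0.10 on the log2 scale (adjusted p = 0.113), which passed in TPM (0.0213), with variance weights per group (0.0184) and in a fit of these groups alone (0.0101). Txn1, the thioredoxin it reduces, had 498 ± 8.66 FPKM in HL, 421 ± 23.4 in H and 657 ± 24.2 in NC. The ratio of Txnrd1 to Txn1 was 0.350 ± 0.00547 in HL, 0.362 ± 0.0251 in H and 0.248 ± 0.0111 in NC, above NC in every HL and H library (exact permutation p = 0.1 each) and overlapping between HL and H (p = 0.5).

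All 14 further thioredoxin, peroxiredoxin and sestrin genes were tested. None was called in HL against H or against NC, and 1 rose in H against NC, where 10.3% of all tested genes rose. At the adjusted p alone 4 were higher and 8 lower in H against NC, with a median log2 fold change of -0.29. By this measure 27.1% of all tested genes were higher and 33.0% lower there. In HL against H 5 were higher and 3 lower by it (26.7% and 21.7% of all tested genes). In HL against NC 3 were higher and 8 lower by it (21.6% and 27.2% of all tested genes). The one that rose, Txnip, which binds and inhibits thioredoxin, had 76.0, 79.7 and 76.9 FPKM in HL, 49.1, 147 and 181 FPKM in H, and 45.8, 43.3 and 42.7 FPKM in NC. H replicate 1 was near NC and the other H libraries were far above it (log2 fold change 1.31, adjusted p = 0.0202), and the call ended without H replicate 2 (adjusted p = 0.0715), H replicate 3 (0.0576), NC replicate 2 (0.0527) or NC replicate 3 (0.056). In HL against H its log2 fold change of -0.50 (adjusted p = 0.339) became a fall without H replicate 1 (-1.07, adjusted p = 4.47e-05) and was -0.13 without H replicate 3.

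Promoter sequences were available for 8 of the 10 genes, in 11 windows of 300 bases (250 before and 50 after a start site, RefSeq, GRCm38.p6), and not for Hmox1 and Gclc. Each was searched on both strands for the core of the antioxidant response element, TGACNNNGC, and for the AP-1 site TGANTCA. The core was found in 4 windows, of Nfe2l2 (TGACTCCGC, 240 bases before the start), Gclm (GCACCGTCA, 134 before), Srxn1 (GCTAGGTCA, 28 after) and one of Txnrd1 (GCTTTGTCA, 92 before), the last 3 written as they read on the strand of the gene. Of all 32851 windows 12.4% hold this core and 7.81% an AP-1 site. Among the 8 genes searched an AP-1 site was found for Srxn1, at 102 and 45 bases before the start, and the second one is followed by GC (TGAGTCAGC). The longer string TGANTCAGC, which contains the AP-1 site and was added after this match was seen, occurs in 1.19% of all windows. The windows of Gclm, at chr3:122245307-122245606 on the plus strand, and of Srxn1, at chr2:152105274-152105573 on the plus strand, are shown because both genes were lower in HL than in H and hold a match, with all matches in capitals. Nfe2l2 and Txnrd1, which also hold the core, were higher in HL than in H at the adjusted p alone. Keap1, Nqo1, Slc7a11 and Fth1 were lower in HL than in H and hold no match in their windows. These are matches of letters and not evidence of binding.
Gclm: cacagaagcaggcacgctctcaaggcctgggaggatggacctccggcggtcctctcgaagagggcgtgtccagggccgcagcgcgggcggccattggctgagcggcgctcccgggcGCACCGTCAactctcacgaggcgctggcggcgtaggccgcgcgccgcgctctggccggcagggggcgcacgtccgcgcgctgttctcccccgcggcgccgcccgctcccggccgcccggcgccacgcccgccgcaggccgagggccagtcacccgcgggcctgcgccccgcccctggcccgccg
Srxn1: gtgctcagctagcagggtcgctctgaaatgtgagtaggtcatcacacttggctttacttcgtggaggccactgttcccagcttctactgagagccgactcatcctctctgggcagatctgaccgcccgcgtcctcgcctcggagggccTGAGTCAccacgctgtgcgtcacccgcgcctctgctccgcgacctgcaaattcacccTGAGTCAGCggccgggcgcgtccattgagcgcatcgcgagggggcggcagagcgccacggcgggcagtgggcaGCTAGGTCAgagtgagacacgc

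Over all 8 lists around NRF2, 69 of 81 genes were tested. In HL compared with H 4 fell and none rose, in H compared with NC 9 rose and 2 fell, and in HL compared with NC 1 rose and none fell, with median log2 fold changes of -0.03, -0.03 and -0.08, against 0.04, -0.04 and -0.04 over all tested genes. The shares of all tested genes were 5.83% that fell and 3.55% that rose in HL against H, 10.3% that rose and 5.75% that fell in H against NC, and 6.30% that rose and 2.41% that fell in HL against NC, so the counts of these lists lie near or below the background. Of 7 enzymes that supply NADPH, none was called in HL against H or NC, and Idh2, the mitochondrial isocitrate dehydrogenase, fell in H against NC, with 40.9 ± 8.09 FPKM in H and 88.1 ± 0.816 in NC (log2 fold change -1.13, adjusted p = 5.19e-05). That call ended in TPM (-0.94) and without H replicate 1 (-0.95), and HL had 73.0 ± 2.70 FPKM. Of the 4 superoxide dismutase and catalase genes, only Sod3, the secreted superoxide dismutase, was called. It had 32.1 ± 2.07 FPKM in HL, 52.1 ± 3.70 in H and 21.4 ± 0.0764 in NC and rose in H against NC (log2 fold change 1.28, adjusted p = 6.86e-07). Among 9 NADPH oxidase genes, whose products make superoxide, 1 was expressed enough to be tested, Nox4, with 1.90 ± 0.132 FPKM in HL, 2.25 ± 0.518 in H and 2.54 ± 0.196 in NC and no call (adjusted p = 0.346 in HL against H and 0.365 in H against NC). Duox2, below the filter, had 0.726 ± 0.0448 FPKM in HL, 0.642 ± 0.134 in H and 0.174 ± 0.0925 in NC.

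**Figure D5:**
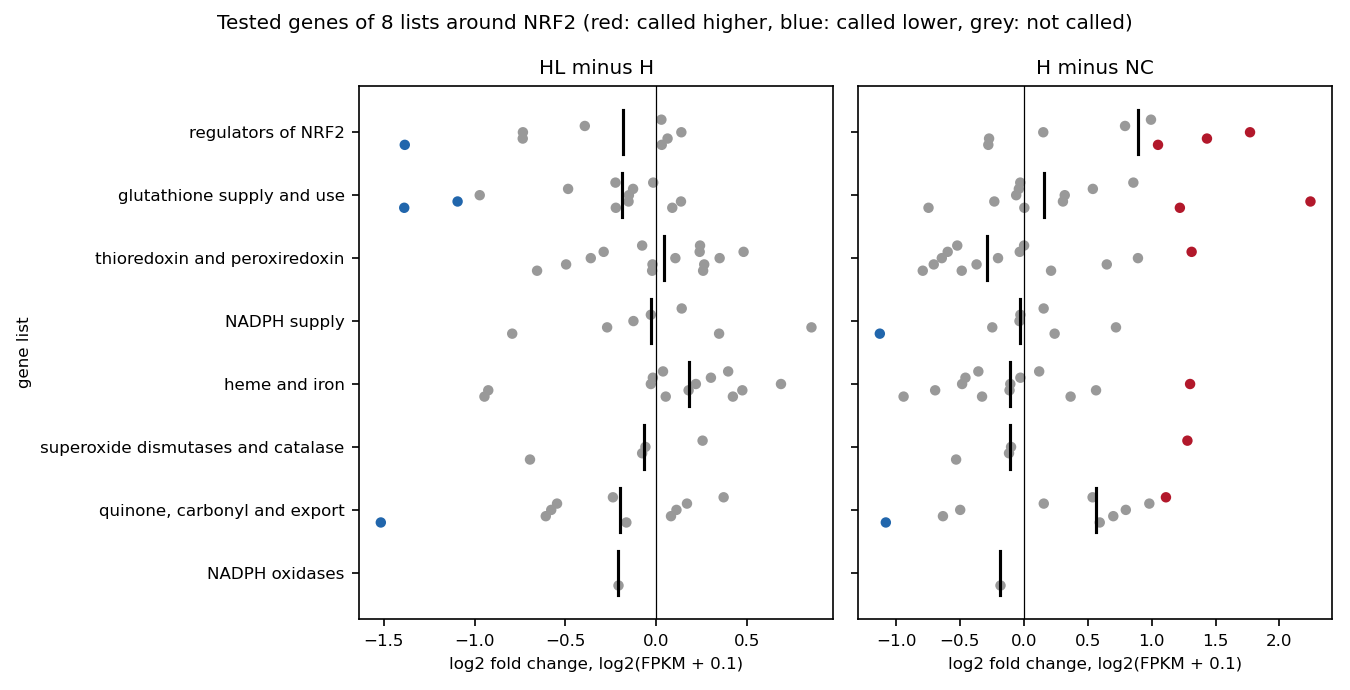
Log2 fold changes on log2(FPKM + 0.1) of the tested genes of 8 lists (vertical axis) in HL minus H (left) and H minus NC (right), 1 point per gene, with the median of each list as a black line. In HL minus H the 4 genes called lower lie in 3 lists, and in H minus NC the regulators of NRF2 have the highest median, 0.89.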

How the data were processed

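Libraries of 9 samples of C2C12 myoblasts (HL, H and NC groups, 3 each) were analysed. Per the methods, reads were quality-trimmed with fastp and aligned by HISAT2 (version 2.1.0), and StringTie (version 1.3.3b) computed the FPKM, the deposited values used here. The sources name different genomes and quantifiers, so no gene coordinates are taken from them. Symbols were found for 51482 of 54307 gene identifiers. FPKM carry no counts, so no count test was run. Depth was estimated from the lowest step of 272 to 319 single-transcript genes of at least 2500 bases per library.

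Genes with at least 1 FPKM in at least 3 libraries (13674) were tested on log2(FPKM + 0.1) with limma (version 3.58.1, statmod 1.5.0, R 4.3.3; trend and robust options, all 9 libraries in 1 fit, 6 residual degrees of freedom), with Benjamini-Hochberg adjustment within each comparison. Thresholds are those of the study's methods. The fit was tested on simulated data. Ratios were compared by exact 2-sided permutation tests. Tables and plots were made with Python 3.11.15, pandas 2.3.3 and matplotlib 3.10.9.

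The members and lists were chosen with earlier results of these data known. The genes named are the 10 members, in each list up to 4 called genes with the largest change (or the 2 with the highest level), the partners in the ratios and the 5 genes nearest to Hmox1. Among the regulators, Maff, Bach1 and Cul3 were named outside this rule. Alternatives were other pseudocounts (1 and 0.01), no filter, a mean FPKM of at least 5, TPM, values centred at the median, weights for the variance of each group, no robust option, a fit of the groups compared, a replicate block, no fold threshold and leaving out each library. Of 5 endothelial and 5 epithelial markers, at most 2 reached 1 FPKM in any group, with summed levels of at most 5.13 and 3.75 FPKM, both in H. No 2 columns held identical values.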

Additional observations from a re-analysis of the deposited data

How the results depend on the processing

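Without the fold threshold, the genes counted were 2 higher and 8 lower in HL against H (0 and 2 with it), 5 higher and 1 lower in H against NC (1 and 0), and 1 higher and 6 lower in HL against NC (0 and 1). Of all tested genes 48.4%, 60.1% and 48.8% passed the adjusted p alone in these comparisons. In TPM, none of the 10 genes fell in HL against NC, since Gclm stood at -0.98. Leaving out each library in turn gave 2 to 3 genes that fell in HL against H, 1 that rose in H against NC and 1 that fell in HL against NC. In TPM, signs turned for differences that had not passed: Txnrd1 (0.094), Ftl1 (0.087) and Hmox2 (0.08) in H against NC and Gclc (0.064) in HL against NC. Leaving out libraries gave ranges of -0.005 to 0.10 for Fth1 in H against NC, -0.059 to 0.003 for Gclc in HL against NC, and -0.025 to 0.16 for the log2 ratio of Slc7a11 to Slc3a2 in HL against H. TPM moved the median of all genes to 0.15 (from -0.04) in H against NC on the log2 scale. The share of rises among the calls moved to 76.8% (from 64.1%). Differences of Txnrd1, Ftl1 and Hmox2 of this size therefore have no firm direction. Fth1 did not turn in TPM (0.258, adjusted p = 0.00198) but did without H replicate 1 (-0.005), so its direction is not firm either. The causes were not tested. With the replicate block, Gclm in H against NC passed the adjusted p (0.0426), Keap1 in HL against H lost it (0.0589), and the counts of calls stayed at 2, 1 and 1. Keap1 in HL against H also lost it without a filter (0.0975), with variance weights per group (0.0639) and in a fit of both groups alone (0.0962). Deviations of same-numbered libraries from their group means had correlations of -0.04 to 0.09. With 3 libraries per group, such values do not settle whether same-numbered samples shared a culture or batch. Over all genes, HL against H gave 256 rises at a pseudocount of 1 and 255 at a mean FPKM of 5 (486 in the report's fit), with 270 falls at that mean and 1606 without a filter (797). H against NC gave 517 rises at that mean and 2711 without a filter (1402). HL against NC gave 446 and 306 rises (862) and 198 and 150 falls (330) at a pseudocount of 1 and that mean, and 622 falls without a filter. Under these alternatives, 558 values of the 10 genes kept their direction and their call by adjusted p and fold together, 4 gained it, 1 lost it and 4 turned. Filters, variance weights, no robust option, a fit of the groups compared and the replicate block left each log2 fold change as it was. So did leaving out a library of the group not compared. There a direction could not turn, and a gene short of the fold threshold could not be called. The 558 therefore overstate how firm these values are. By the adjusted p alone, 31 values changed sides, 21 lost and 10 gained. Depth allows about 16.0 to 21.1 fragments per kilobase at 1 FPKM, which limits genes of a few FPKM or less, such as Slc7a11, Nox4 and Duox2.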
